A study of Rattus norvegicus with 9 samples.

Results

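The 10 genes described here are Slc2a1, Hk2, Ldha, Pgk1, Pdk1, Bnip3, Ndrg1, Egln3, Ero1a and Hif1a, picked by gene symbol out of the 41801 genes listed in the rat single-cell libraries. All 10 symbols were found, each under 1 entry, and their UMI totals over the libraries ran from 9753 for Pdk1 to 469052 for Ldha. The cells came from the osteotomy site of Sprague-Dawley rats aged 6 to 8 weeks. Every animal carried a circular osteotomy of 3 mm in the proximal tibia and a full-thickness skin wound of 4 mm on the back of the foot of the same side. Rats of the TO group had the osteotomy with no further treatment, and rats of the TOE group also received radial extracorporeal shock waves over the osteotomy on postoperative days 2 and 4. Library names give the group, the day of the shock wave session and the hours after it, so that TOE 2d 4h was collected 4 h after the day 2 session and TO 2d 4h is its untreated counterpart. The TOE libraries of 2d were thus collected after 1 session and those of 4d after 2. Within TOE, day and number of sessions cannot be told apart. The 8 libraries analysed were TO 2d 0h (before any session), TO 2d 4h, TO 4d 4h, TO 4d 24h, TOE 2d 4h, TOE 2d 24h, TOE 4d 4h and TOE 4d 24h, and TO 2d 24h was not analysed here. Each condition was 1 library, and the labels give 9 rats for 9 samples without tying a library to an animal. Differences between 2 libraries therefore carry no test, and differences between animals and between conditions cannot be told apart.

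When oxygen is scarce, prolyl hydroxylases no longer mark the alpha subunit of hypoxia-inducible factor for destruction, and the factor switches on genes for glucose uptake, glycolysis, lactate production and mitophagy. Hif1a encodes that alpha subunit, whose amount is set mainly at the protein level, so its mRNA is a poor guide to its activity. Among its well known targets, Slc2a1 encodes the glucose transporter GLUT1, Hk2 a hexokinase and Pgk1 a phosphoglycerate kinase. Of the same targets, Ldha encodes the lactate dehydrogenase subunit that favours lactate formation, and Pdk1 a kinase that limits the oxidation of pyruvate in the mitochondria. Bnip3 encodes a mitophagy receptor, Egln3 a prolyl hydroxylase that acts back on the factor, Ero1a an oxidase for disulphide bond formation in the endoplasmic reticulum, and Ndrg1 a stress-responsive protein. Many of the same genes also respond to growth and inflammatory signals. A fracture site has disrupted vessels, and its marrow holds neutrophils and macrophages that rely on glycolysis.

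After filtering, 110488 cells remained (11924 to 16228 a library, from libraries of 95954800 to 144146202 UMIs), and any pair of the 8 libraries shared 40 to 110 cell barcodes. Clustering gave 30 clusters, and 25 of them were named from marker genes into 11 classes. The B cell-like class held 60989 cells, the neutrophil-like class 15453, the monocyte-like class 11062, the macrophage-like class 2272 and the mesenchymal-like class 1279, and 8.32% of cells stayed unnamed. The median UMI count of a cell was 4294 in the B cell-like and 31912 in the mesenchymal-like class. The library TOE 4d 24h stood apart. It held 0 cells of cluster 9, the larger erythroid-like cluster, to which each of the others gave 351 to 588. It had 26 macrophage-like and 16 endothelial-like cells, 17 cells of the larger monocyte-like cluster where the other libraries had 638 to 1278, and 65 cells of a B cell-like cluster that held 3501 to 4267 cells in each of the other libraries collected at 0 or 24 h. The summed level of 10 erythroid markers in its neutrophil-like cells was 22.3 UMIs per 1000000 UMIs (CPM), against 767.2 to 1649 in the other libraries. TO 2d 4h, the untreated side of the 2d 4h pair, was unusual in another way. It gave 1990 of the 2065 cells of cluster 29, to which each other library gave 0 to 64. This unnamed cluster had a median of 1869 UMIs and mixed leading genes such as Hbb-b2, Col1a1 and RatNP-3b, and its cells entered no class. Results that rest on TOE 4d 24h are given so that they can be left aside.

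RefSeq promoter windows of the rat build GRCr8, from 250 bases before to 50 bases after the gene start, were at hand for 7 of the 10 genes. They are shown because the core of the hypoxia response element, ACGTG or GCGTG, is the sequence that hypoxia-inducible factor binds. The letters were searched on both strands, so that CACGTG counts as 2 matches and CACGT and CACGC are matches on the opposite strand. In the stretches below, written 5′ to 3′ along the strand of the gene, capitals mark the matches.
Slc2a1, chr5:138002434-138002487 (+), positions -88 to -35 from the gene start: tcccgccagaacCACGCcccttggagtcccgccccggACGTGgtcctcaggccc
Ldha, chr1:106507993-106508035 (+), positions -99 to -57: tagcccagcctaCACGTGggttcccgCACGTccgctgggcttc
Pdk1, chr3:77113371-77113399 (+), positions -143 to -115: ccgctcacatggGCGTGtcttcagtaagg
Bnip3, chr1:203155036-203155082 (-), positions -120 to -74: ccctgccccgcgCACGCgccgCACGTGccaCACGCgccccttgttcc
Hif1a, chr6:98359657-98359686 (+), positions -241 to -212: cacacagacgagCACGTGagctgggcagct

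The whole window of Ldha held 6 matches, those of Slc2a1, Pdk1 and Bnip3 held 4 each and that of Hif1a held 3. The windows of Hk2 and Egln3 held 0. Of 33469 rat promoter windows of the same length, 41.6% held at least 1 match and 3.46% held 4 or more. These matches are letters in a window and were not measured as binding sites. Pgk1, Ndrg1 and Ero1a are named only.

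Levels are given in CPM, the UMIs of the gene per 1000000 UMIs of the same class in the same library, as the lowest, the median and the highest library, and they compare classes for 1 gene and not genes with each other. Classes of a library share that library. The glucose transporter gene Slc2a1 had its highest medians in dendritic cell-like, macrophage-like and monocyte-like cells, and the hexokinase gene Hk2 in mesenchymal-like cells. The mesenchymal-like median of Slc2a1 was 40.8 CPM (20.5 to 66.9). Slc2a1 had medians of 149.1 CPM in the dendritic cell-like class (51.2 to 231.8), 139.6 in the macrophage-like class (30.9 to 357.5) and 128.1 in the monocyte-like class (43.3 to 211.9). Its median was 20.95 in the B cell-like class (14.2 to 34.8) and 4.21 in the erythroid-like class (1.44 to 9.70). The ranges of these last classes did not overlap, whereas those of the 3 leading classes did, and the monocyte-like class gave 46.2% of all Slc2a1 UMIs. Hk2 was highest in the mesenchymal-like class, with 66.3 CPM (30.5 to 86.04), ahead of 41.4 (28.4 to 105.8) in the macrophage-like and 27.95 (18.1 to 45.5) in the monocyte-like class, and it was lowest in erythroid-like cells at 1.66 (1.08 to 4.10).

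UMIs of Ldha and Pgk1, genes of the later steps of glycolysis, were counted in every class, and their highest medians were in myeloid classes. Droplets can also hold RNA from other cells, and no background level was measured for the members. Erythroid markers summed to 22.3 to 1649 CPM in neutrophil-like cells and mesenchymal markers to 85.3 to 1209 CPM in B cell-like cells, so that a low level in a class is not shown to come from its own cells. Ldha reached 974.1 CPM (585.9 to 1339) in macrophage-like, 934.1 (734.2 to 1195) in granulocyte-monocyte progenitor-like, 840.2 (545.4 to 1079) in mast cell/basophil-like and 826.4 (614.7 to 1468) in monocyte-like cells, and 185.6 (116.2 to 240.0) in B cell-like cells. The fold between the highest and the lowest class median was 5.25. Pgk1 had its highest median in granulocyte-monocyte progenitor-like cells, 869.7 CPM (764.1 to 996.4), and its lowest in erythroid-like cells, 106.3 (67.1 to 201.4). The top of this erythroid-like range was TOE 4d 24h, where cluster 9 was absent. Pdk1 was low throughout, from 27.4 CPM (12.1 to 36.3, 7 libraries) in endothelial-like and 24.4 (17.8 to 62.9) in macrophage-like cells to 5.38 (4.46 to 9.85) in neutrophil-like cells.

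Bnip3, Ndrg1 and Ero1a had their highest median in the macrophage-like class. Bnip3 stood at 81.1 CPM there (23.5 to 328.9) and at 31.7 (26.3 to 92.4) in mesenchymal-like and 22.1 (12.1 to 29.0) in endothelial-like cells, and its median was 6.83 or lower in the other 8 classes. Ndrg1 reached 175.5 CPM (57.5 to 437.5) in macrophage-like cells, followed by 82.95 (53.0 to 128.9) in endothelial-like and 62.4 (30.2 to 198.4) in mesenchymal-like cells, down to 8.37 (4.44 to 14.3) in B cell-like cells. For Ero1a the macrophage-like median was 91.5 CPM (26.2 to 580.5), and the other classes spread from 65.8 (40.6 to 95.9) in mast cell/basophil-like to 22.4 (9.58 to 31.5) in erythroid-like cells. The top of each macrophage-like range was TOE 4d 24h with its 26 cells. Without that library the highest macrophage-like values were 138.8 CPM for Bnip3, 236.7 for Ndrg1 and 197.7 for Ero1a. The macrophage-like class was 1 cluster in which osteoclast markers were raised as well, with Ctsk among its leading genes. With a finer clustering, a separate cluster of 406 cells was named osteoclast-like. Levels and ratios of the macrophage-like class may therefore not be those of macrophages alone.

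Egln3 and Hif1a were distributed differently. Egln3 had its highest median in mast cell/basophil-like cells, with 80.9 CPM (28.7 to 104.6). That range lay above that of the next class by median, the B cell-like class, with 25.45 (17.8 to 27.1). The macrophage-like range, 2.62 to 231.6 with a median of 17.0, overlapped the mast cell/basophil-like range. Its top was TOE 4d 24h with 26 cells. The B cell-like class, the most numerous, gave 59.95% of all Egln3 UMIs. Its neutrophil-like range of 11.1 to 18.1 lay above the endothelial-like range of 2.12 to 10.9, and its monocyte-like, mesenchymal-like and erythroid-like medians were 2.72, 1.82 and 1.76. Hif1a was likewise highest in mast cell/basophil-like cells, 395.9 CPM (195.5 to 465.7), and in endothelial-like cells, 390.6 (216.2 to 499.7, 7 libraries). Its median was 199.6 in monocyte-like and 197.2 in macrophage-like cells, 76.8 (53.3 to 93.0) in B cell-like cells and 26.7 (22.6 to 33.9) in erythroid-like cells. Of the 100 pairs of neighbours in these orders, 96 had overlapping ranges over libraries, and the 4 that did not were the Egln3 pairs and the steps from B cell-like to erythroid-like cells for Slc2a1 and Hif1a.

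**Figure D1:**
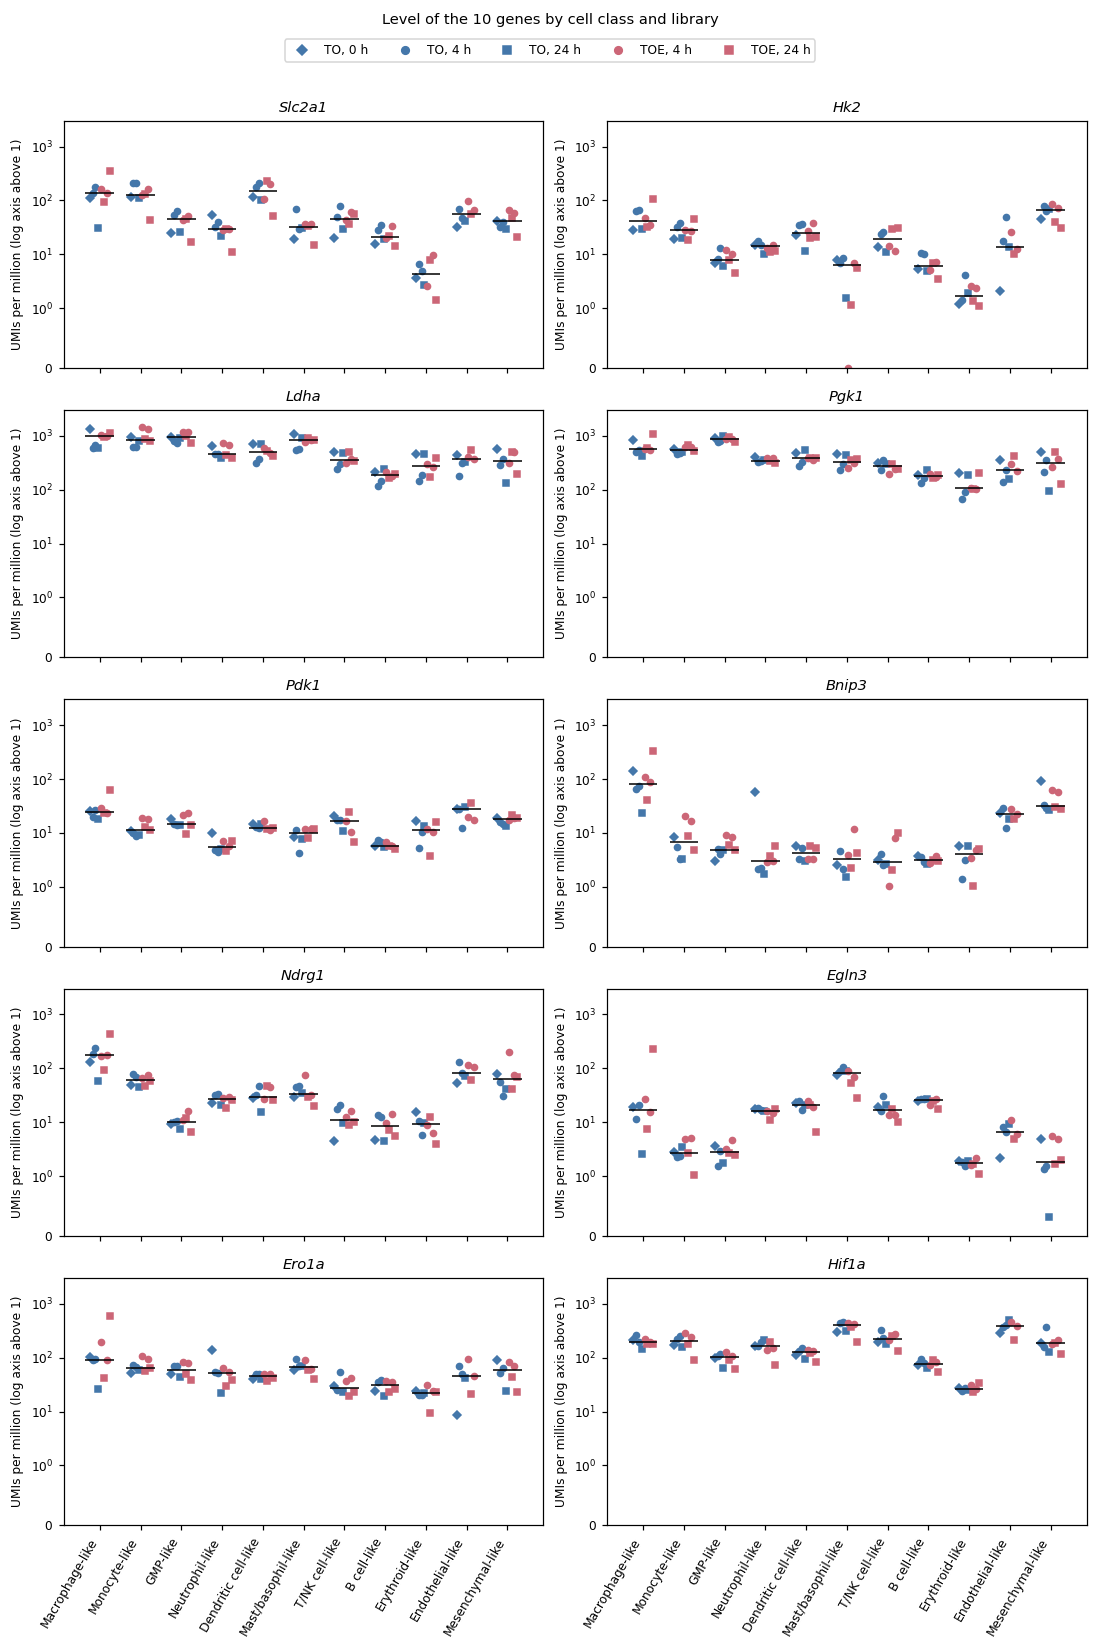
Level of each of the 10 genes (CPM, log axis above 1) in 11 cell classes, with 1 point per library (blue TO, red TOE; diamonds 0 h, circles 4 h, squares 24 h; GMP, granulocyte-monocyte progenitor; library and class sums under 20 cells left out) and black lines at the medians. Bnip3 and Ndrg1 are highest in macrophage-like cells, Egln3 in mast cell/basophil-like cells, and the red square at the top of several macrophage-like columns is TOE 4d 24h with 26 cells.

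A small neutrophil-like cluster carried most of these transcripts at levels far above the rest of its class. Cluster 25 had 392 cells, 313 of them from TO 2d 0h and 1 to 19 from each other library, and had Cxcl3, Cxcl2, Cxcl1 and Ccl3, which encode chemokines, as its leading genes. Of 11 neutrophil markers, 6 were raised in it, and the median UMI count of its cells was 2470. Bnip3 was at 688.3 CPM (95% counting interval 637.9 to 741.7) in this cluster, against 1.37 to 4.08 CPM in the other 4 neutrophil-like clusters. Ero1a was at 1452 CPM (1379 to 1529) against 37.6 to 45.6, Slc2a1 at 605.5 (558.3 to 655.7) against 7.48 to 61.0, and Ldha at 2252 (2161 to 2347) against 355.9 to 607.0. Egln3 stood at 153.6 CPM against 5.53 to 25.9, Pdk1 at 84.8 against 3.56 to 11.9, Ndrg1 at 125.7 against 10.6 to 47.5, Hk2 at 63.8 against 9.50 to 16.5 and Pgk1 at 1147 against 284.5 to 397.1. Hif1a was the exception, with 302.3 CPM (269.2 to 338.3) in cluster 25 and 316.8 in cluster 21. Clusters were formed from expression of the 2000 most variable genes in these same cells, so these differences describe the cluster and are not tests.

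The 79 cells of cluster 25 outside TO 2d 0h were too few for a firm level in each library. Among the libraries with 15 or 19 of them, Bnip3 was at 474.4 CPM in TO 2d 4h (20 UMIs), 219.0 in TOE 2d 24h (9 UMIs) and 1218 in TOE 4d 24h (72 UMIs). Hk2 had 0 UMIs there in TO 2d 4h and TOE 2d 24h and 12 in TOE 4d 24h. Ndrg1 in TOE 2d 24h was at 24.3 CPM (1 UMI), below the 40.9 of cluster 20 and the 25.5 of cluster 21 in that library. Because of this cluster, the neutrophil-like class as a whole stood high in TO 2d 0h. Bnip3 there was 58.1 CPM with cluster 25 and 3.31 (2.26 to 4.67) without it, Ero1a 137.4 and 29.6, and Slc2a1 53.5 and 16.4. In TOE 4d 24h, Bnip3 was 5.63 CPM with and 2.20 without its 19 cells. Leaving out the cluster was decided after its values had been seen.

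**Figure D2:**
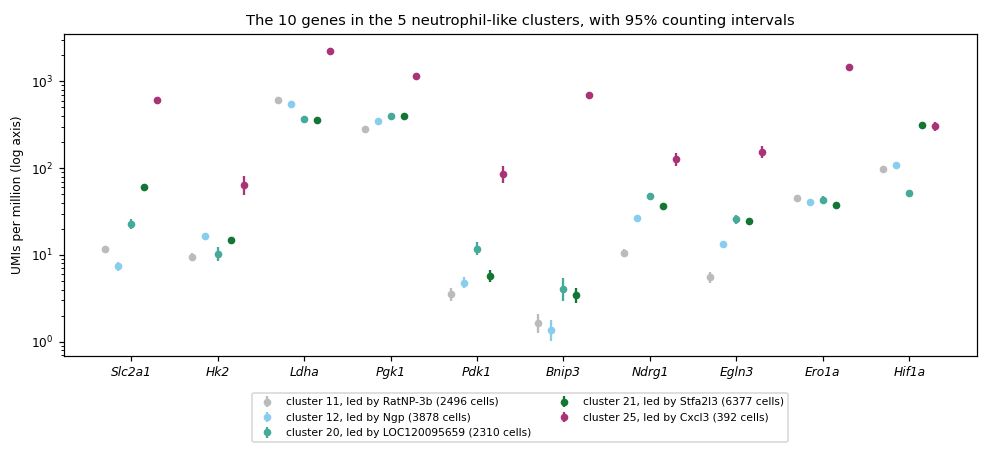
Level of the 10 genes (CPM, log axis) in the 5 neutrophil-like clusters, summed over 8 libraries, with 95% counting intervals; the legend gives each cluster's leading gene and cell number. Cluster 25, led by Cxcl3, is highest for 9 of the 10 genes, and for Hif1a cluster 21 reaches 316.8 against 302.3.

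The study sequenced this tissue to trace which cells release the small extracellular vesicles it linked to wound healing, with TO as the control of TOE. In 3 pairs the libraries match in day and hour (2d 4h, 4d 4h and 4d 24h). Ratios of TOE over TO are given with 95% intervals that cover counting error only, not differences between animals. Ldha was higher in TOE in every class in both pairs collected at 4 h. At 2d 4h its ratio was above 1 in 11 of 11 classes, from 1.08 in mesenchymal-like to 2.39 in monocyte-like cells with a median of 1.69, and the interval lay above 1 in 10 classes. At 4d 4h it was above 1 in 11 of 11 classes, from 1.16 in endothelial-like to 2.12 in monocyte-like cells with a median of 1.41, with all 11 intervals above 1. At 4d 24h the ratio was above 1 in 4 of 10 classes, from 0.601 in dendritic cell-like to 1.94 in macrophage-like cells, with 2 intervals above and 5 below 1. Over all libraries, Ldha was lowest in TO 2d 4h or TO 4d 4h in every class but the macrophage-like, neutrophil-like and mesenchymal-like ones. It was highest in TO 2d 0h in macrophage-like, mast cell/basophil-like, mesenchymal-like and erythroid-like cells. In dendritic cell-like and B cell-like cells it was highest in TO 4d 24h, and elsewhere in a TOE library. Of the 6 members with at least 20 UMIs in every class and pair (Slc2a1, Ldha, Pgk1, Ndrg1, Ero1a and Hif1a), Ldha was the 1 with all 22 ratios of the 4 h pairs above 1, and 20 of 5133 genes with such counts (0.390%) were above 1 in all 22. Classes of a pair share the same 2 libraries, so the 11 ratios are not independent replicates. Within single clusters with at least 20 cells on both sides, an alternative added after seeing the data, Ldha was above 1 in 24 of 24 clusters at 2d 4h, in 23 of 24 at 4d 4h and in 5 of 20 at 4d 24h.

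**Figure D3:**
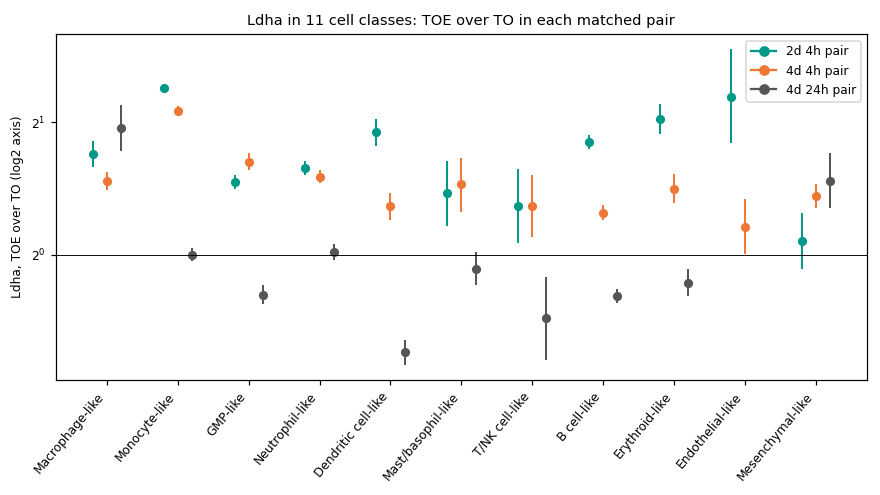
TOE over TO ratio of Ldha (log2 axis) in each cell class for the 3 matched pairs, with 95% counting intervals; endothelial-like cells have no 4d 24h value because TOE 4d 24h held 16 of them. All 22 points of the 4 h pairs lie above 1, and 4 of the 10 points of the 4d 24h pair do.

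Pgk1, the enzyme that makes ATP a few steps before lactate, had smaller median ratios over the classes than Ldha in each pair, although its ratio was the larger one in single classes, such as mesenchymal-like cells at 2d 4h (1.26 against 1.08) and macrophage-like cells at 4d 24h (2.53 against 1.94). It was above 1 in 10 of 11 classes at 2d 4h (median 1.26, 9 intervals above 1), in 8 of 11 at 4d 4h (median 1.08, 7 intervals above and 1 below 1) and in 4 of 10 at 4d 24h (median 0.879, 3 above and 6 below). The erythroid-like class, 1 of these 4, lacked its cluster 9 on the TOE side (0 cells against 550), so its class ratio mixed different clusters. Within its other cluster the Pgk1 ratio at 4d 24h was 0.865, with the interval below 1. Hk2 and Slc2a1, which act at glucose entry, were below 1 in most classes of the 4 h pairs. The Hk2 ratio was above 1 in 4 of 11 classes at 2d 4h and in 2 of 11 at 4d 4h, with medians of 0.764 and 0.733, and in 6 of 10 at 4d 24h, with a median of 1.48. The Slc2a1 ratio was above 1 in 3 of 11 and 4 of 11 classes, with medians of 0.833 and 0.925, and in 2 of 10 at 4d 24h, with a median of 0.586. Bnip3 was above 1 in 6 of 11, 10 of 11 and 9 of 10 classes in the order of these pairs, with 5, 5 and 2 intervals above 1 and 1, 0 and 0 below 1. Hif1a had medians of 1.04, 0.962 and 0.844 in the same order.

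Monocyte-like cells showed the largest Ldha ratios of the 4 h pairs. Among TO libraries, Ldha in this class was 940 CPM at 2d 0h, 614.7 for 2d 4h, 618.6 for 4d 4h and 794.2 for 4d 24h, and among TOE libraries it was 1468 CPM for 2d 4h, 857.4 for 2d 24h, 1311 for 4d 4h and 795.4 for 4d 24h. Both TOE libraries of 4 h were above all others, and both TO libraries of 4 h were below all others. The ratios of the 3 pairs, in the order given above, were 2.39 (2.34 to 2.44), 2.12 (2.08 to 2.17) and 1.00 (0.973 to 1.03). In the same pairs Bnip3 was 5.40, 3.24 and 3.25 CPM without and 20.8, 16.7 and 4.88 CPM with shock waves. Its ratios were 3.85 (3.14 to 4.74), 5.17 (3.92 to 6.95) and 1.504 (0.988 to 2.29). The unpaired libraries stood at 8.26 CPM (TO 2d 0h) and 8.67 CPM (TOE 2d 24h), so that over all 8 libraries the groups overlapped. Neutrophil markers in this class moved with the arm as well. Their summed level (10 or 11 of 11 detected) was 4690, 3235 and 3640 CPM in the TO libraries of the pairs against 6593, 7321 and 6538 CPM with shock waves, and 5915 and 8841 CPM in TO 2d 0h and TOE 2d 24h, so that all 4 TOE libraries exceeded all 4 TO libraries. The median mitochondrial share was 3.44, 3.39 and 4.35% in the TO libraries of the pairs and 2.61, 2.26 and 2.82% in the TOE libraries. The part of either in the ratios was not tested.

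Slc2a1 stood on the other side of 1 from Ldha in monocyte-like cells at 4 h, although both encode proteins of glucose use. It was 210.0, 211.9 and 109.4 CPM in the TO libraries of the 3 pairs and 127.7, 162.1 and 43.3 CPM in the TOE libraries. The ratios of 0.608, 0.765 and 0.396 all had intervals below 1. Pdk1 had ratios of 1.94 and 2.07 at 4 h and 1.25 (0.963 to 1.61) at 24 h, and Egln3 had 2.22, 2.17 and 0.302, the last from 53 and 10 UMIs. Both monocyte-like clusters gave the same side of 1 for these genes at 4 h. Ldha was 2.53 and 2.23 in cluster 17 and 2.03 and 1.97 in cluster 18, Bnip3 4.33 and 5.87 against 2.70 and 4.19, and Slc2a1 0.679 and 0.708 against 0.590 and 0.912. Outside the pairs, Slc2a1 in clusters 17 and 18 was 126.0 and 55.0 CPM in TO 2d 0h and 136.3 and 69.3 CPM in TOE 2d 24h. The TO 2d 0h values lay below those of TOE 2d 4h (151.6 and 89.2), so that over all libraries the groups overlapped for Slc2a1. At 4d 24h cluster 17 had 889 and 17 cells, so the class ratio there mixed different clusters. In cluster 18 alone the 4d 24h ratio was 1.08 (1.02 to 1.13) for Ldha, 1.32 (0.638 to 3.06) for Bnip3 and 0.538 (0.451 to 0.645) for Slc2a1.

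Over all 10 genes in monocyte-like cells, intervals lay apart from 1 for 10 genes at 2d 4h (7 above, 3 below), 9 at 4d 4h (7 above, 2 below) and 6 at 4d 24h (3 above, 3 below). With deep counts this is common, since 57.7%, 46.1% and 63.6% of all genes with at least 20 UMIs were apart from 1 in the same pairs. The median log2 ratio of the members was 0.50, 0.39 and 0.07, beside 0.13, -0.04 and 0.21 over all genes.

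In macrophage-like cells the 3 pairs differed from each other. At 2d 4h, 7 intervals lay above 1 and 2 below, at 4d 4h 2 above and 4 below, and at 4d 24h 9 above and 0 below, where 27.2%, 30.5% and 25.9% of all genes were apart from 1. Ldha was 600.9, 675.9 and 585.9 CPM in the TO libraries of these pairs against 1018, 992.9 and 1138 CPM in the TOE libraries, and it was the 1 gene besides Bnip3 with every interval above 1. The unpaired libraries held 1339 CPM of Ldha (TO 2d 0h, the highest of all 8) and 955.3 CPM (TOE 2d 24h), so that over all libraries the groups overlapped. The Bnip3 ratios were 1.70 (1.40 to 2.08), 1.204 (1.06 to 1.37) and 14.0 (9.82 to 20.2), the second being 0.969 with classes from a finer clustering. Ero1a was at 2.22 (1.89 to 2.60), 0.951 (0.843 to 1.07) and 22.2 (16.2 to 30.9). Hk2 was below 1 at 4 h, with 0.744 and 0.534, and 3.55 (2.28 to 5.46) at 24 h.

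The macrophage-like 4d 24h ratios compare 138 with 26 cells. Besides Bnip3 and Ero1a, Slc2a1 was 11.6 (8.43 to 16.1), Ndrg1 7.60 (5.91 to 9.81), Pgk1 2.53 (2.23 to 2.87), Pdk1 3.54 (1.97 to 6.23) and Egln3 88.6 (36.4 to 280.1, from 5 and 81 UMIs), while Hif1a was 1.22 (0.914 to 1.62). The median log2 ratio was 2.38 over the members and 0.02 over all genes. These 2 libraries also differed in other markers of this class. The summed level of 5 osteoclast markers was 1956 CPM in TO 4d 24h (5 detected) and 1235 in TOE 4d 24h (3 detected), against 307.1 to 551.8 in 5 other libraries and 2212 in TOE 2d 24h. Erythroid markers summed to 991.8 and 137.3 CPM, with 10 and 4 of 10 detected, and macrophage markers to 4153 and 3220. In the same order neutrophil markers summed to 2354 and 3060 CPM, and monocyte markers to 1281 and 2920 CPM, the lowest and the highest of the 8 libraries. TO 4d 24h had the lowest macrophage-like level of all libraries for 9 of the 10 members (all but Hk2), and TOE 4d 24h the highest for 8 (all but Ldha and Hif1a). The part of these markers in the ratios was not tested.

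Mesenchymal-like cells had ratios above 1 for all 10 genes at 2d 4h (6 when each cell was weighted alike), for 9 at 4d 4h and for 6 at 4d 24h. Of all genes, 44.3%, 50.3% and 70.3% had ratios above 1 in these pairs, and the median log2 ratio was 0.49, 0.40 and 0.26 over the members beside -0.06, 0.00 and 0.29 over all genes. Intervals lay above 1 for 5, 6 and 3 genes and below 1 for 0, 1 and 1, where 24.8%, 37.6% and 41.1% of all genes were apart from 1. Ndrg1 was 56.8, 30.2 and 42.0 CPM in the TO libraries of the 3 pairs, against 198.4, 76.0 and 67.98 in the matched TOE libraries. All 3 TOE values of the pairs exceeded all 3 TO values, with ratios of 3.495 (2.72 to 4.53), 2.52 (2.10 to 3.02) and 1.62 (1.27 to 2.07). Outside the pairs, TO 2d 0h stood at 79.1 CPM and TOE 2d 24h at 41.3, so that over all 8 libraries the groups overlapped. Monocyte markers in this class summed to 908.8, 1404 and 988.3 CPM in the TO libraries of the pairs and to 862.8, 806.0 and 475.4 CPM in the TOE libraries. They summed to 1309 CPM in TO 2d 0h and 924.8 CPM in TOE 2d 24h. Mesenchymal markers ran from 70383 to 276001 CPM over the libraries. The part of either in the ratios was not tested. Bnip3 had ratios of 1.88 (1.297 to 2.74), 1.94 (1.60 to 2.36) and 1.04 (0.729 to 1.48). Hif1a was 0.588 (0.547 to 0.633) at 4d 4h, where TO 4d 4h held 368.8 CPM against 116.0 to 217.0 in the other 7 libraries. This class had 60 to 183 cells in each of the 6 libraries, and Egln3 rested on 1 to 24 UMIs.

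In neutrophil-like cells the 4 h pairs again had higher Ldha, with 726.1 CPM (2d 4h) and 683.7 CPM (4d 4h) in TOE against 461.5 and 454.3 in TO, and ratios of 1.57 (1.53 to 1.62) and 1.505 (1.46 to 1.55). At 4d 24h the values were 393.3 and 387.0. Hif1a was lower in TOE in each pair, at 139.5 against 167.8, 150.4 against 192.3 and 72.9 against 209.5 CPM, with ratios of 0.831, 0.782 and 0.348 (0.326 to 0.371). The clusters of this class did not enter the 4d 24h pair alike. Cluster 21, the richest in Hif1a, had 1700 cells on the TO side and 366 on the TOE side, and cluster 20, the poorest with 51.7 CPM, had 99 and 1396. Within the 4 clusters with enough cells the ratio at 4d 24h was 0.775, 0.428, 0.552 and 0.863, all with intervals below 1. At 4 h the clusters did not share a direction, and cluster 21 had 1.21 (1.10 to 1.32) on day 2 and 0.717 (0.662 to 0.776) on day 4. With clusters weighted alike, the Hif1a ratio of the class at 2d 4h was 1.04. Over the 10 genes, intervals lay above 1 for 4, 2 and 4 and below 1 for 2, 2 and 3 in the 3 pairs, where 56.4%, 39.7% and 59.5% of all genes were apart from 1.

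B cell-like cells had Ldha at 116.2 and 142.7 CPM in TO 2d 4h and TO 4d 4h and at 209.7 and 177.9 in their TOE counterparts, and at 240.0 in TO 4d 24h against 193.3 in TOE 4d 24h. The ratios were 1.80 (1.75 to 1.86), 1.25 (1.21 to 1.29) and 0.806 (0.781 to 0.831). The clusters did not enter the 2d 4h pair alike, with 311 cells in TO and 2595 in TOE for cluster 4, 122 and 924 for cluster 23 and 1606 and 2945 for cluster 15. Within 9 clusters Ldha was above 1 in 9 of 9 in that pair, from 1.16 to 3.08, with 7 intervals above 1. With clusters weighted alike the ratios were 1.68, 1.32 and 0.880. The class ratio of Hk2 was below 1 in each pair, at 0.491, 0.721 and 0.707, as was Slc2a1, at 0.691, 0.952 (0.884 to 1.02) and 0.729. At 4d 24h the class came from different clusters on the sides of the pair, with 3501 cells in TO and 65 in TOE for cluster 0 and 342 and 3625 for cluster 4. Within the 8 clusters with at least 20 cells on both sides of that pair, the ratio was above 1 in 3 for Hk2, with 0 intervals below 1, in 3 for Slc2a1, with 1 interval below 1, and in 1 for Ldha, with 3 intervals below 1. Intervals lay above 1 for 2, 5 and 2 genes and below 1 for 6, 2 and 6, where 66.8%, 40.7% and 73.6% of all genes were apart from 1.

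**Figure D4:**
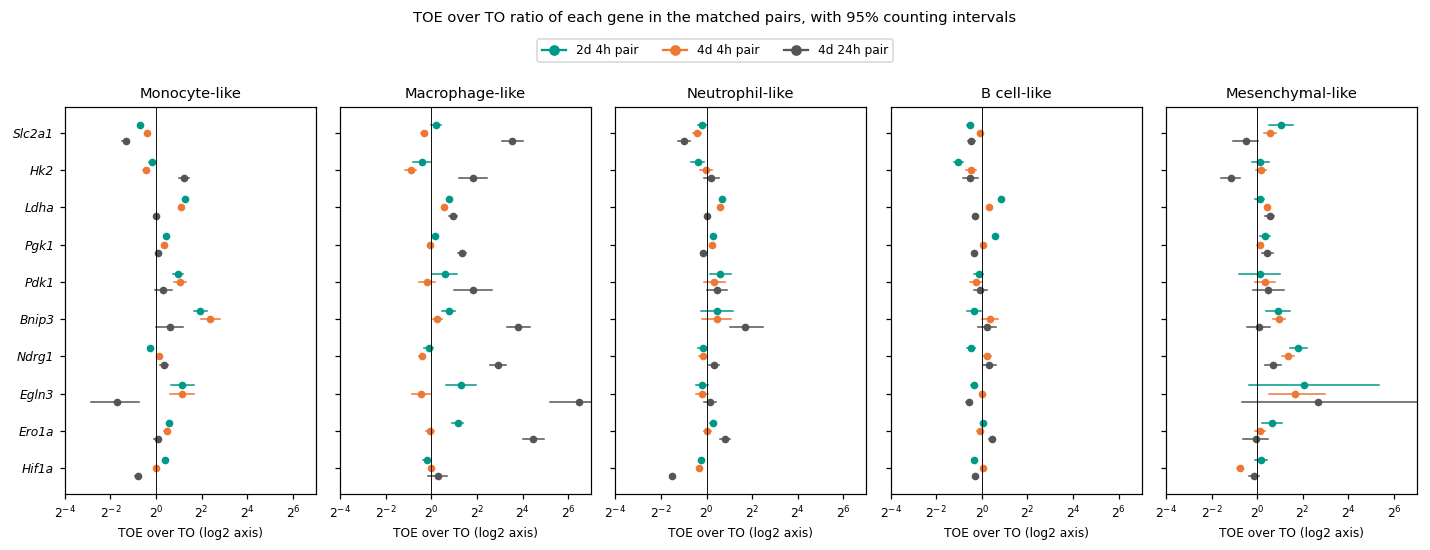
TOE over TO ratio (log2 axis) of each of the 10 genes in 5 cell classes for the 3 matched pairs, with 95% counting intervals. Monocyte-like Bnip3 and Ldha lie above 1 and Slc2a1 below 1 in both 4 h pairs, and in macrophage-like cells the 4d 24h pair (138 against 26 cells) stands to the right of both others for all 10 genes. Intervals that run past the axis end at its edge.

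A test of the arm needs the 3 pairs to be taken as replicates of it, although they differ in day and hour. With the pair as a factor, edgeR's quasi-likelihood test had 2 residual degrees of freedom and called 0 members at an adjusted p of 0.05 in each of the B cell-like, neutrophil-like, monocyte-like, macrophage-like and mesenchymal-like classes. Over all genes it called 0%, 0%, 0%, 0.00915% and 0% in the same order. At an unadjusted p under 0.05 it held 1, 2, 3, 1 and 1 members of 10 (9 in the mesenchymal-like class, where Egln3 was too low to test), beside 7.05%, 7.07%, 9.12%, 4.08% and 3.05% of all genes. In monocyte-like cells these were Bnip3 (log2 fold 1.61, SE 0.41), Slc2a1 (-0.90, SE 0.26) and Pdk1 (0.70, SE 0.24), each with an edgeR adjusted p of 0.543. The others were Ldha in macrophage-like cells (0.73, SE 0.19), Ndrg1 in mesenchymal-like cells (1.20, SE 0.31), Hk2 in B cell-like cells (-0.79, SE 0.30), and Hif1a (-0.74, SE 0.29) and Slc2a1 (-0.56, SE 0.22) in neutrophil-like cells. DESeq2 with the same design called 1 member, Bnip3 in monocyte-like cells (log2 fold 1.56, adjusted p = 0.0327), where it called 0.790% of genes. Without TO 4d 24h, and likewise without TOE 4d 24h, which leaves the 4 h pairs as the complete ones, the edgeR fit called 2 members in monocyte-like cells, Bnip3 (2.11 in both) and Ldha (1.14 in both, adjusted p = 0.0458 and 0.031), where 0.581% and 1.01% of genes were called. In the B cell-like class such fits called 1227 genes without TO 4d 4h and 1236 without TOE 4d 4h, against 0 with all libraries and 1 to 10 without any of the others. The macrophage-like fit called 58 genes without TO 4d 24h and 35 without TOE 4d 24h, against 1, and the neutrophil-like fit 27 in each of these cases, against 0. In these 3 classes 0 members were called with any 1 library left out. Each fit with 1 library left out had 1 residual degree of freedom. The library left without its match was taken up by the pair factor. Both fits that left out a library of the same pair thus estimated the arm from the same 4 libraries, and they are not 2 separate results.

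Collection hour gave calls where the arm did not. The 4 libraries collected at 4 h were compared with the 4 collected at 0 or 24 h, with arm and day as covariates and 4 residual degrees of freedom. Ndrg1 and Ero1a rose in the 4 h libraries of the B cell-like and the monocyte-like class, 2 of 10 members in each, where 12.9% and 12.0% of all genes were called. With all clusters of each class, 0 members were called in the neutrophil-like, macrophage-like and mesenchymal-like classes, where 8.44%, 7.96% and 0.114% of genes were, and at an unadjusted p under 0.05 0 members stood there too, as against 3 in the B cell-like and 4 in the monocyte-like class. Of all genes, 31.2% stood at such a p in the B cell-like class, 31.15% in the monocyte-like, 26.5% in the neutrophil-like, 27.2% in the macrophage-like and 20.8% in the mesenchymal-like class. DESeq2 also called 0 in these 3 classes, where it called 13.5%, 12.4% and 6.98% of genes, and it called 4 in the monocyte-like class, Slc2a1 and Hif1a being the others, where it called 17.9%.

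The neutrophil-like result for Ero1a changed without cluster 25, the small cluster that came mostly from TO 2d 0h. With all clusters, Ero1a had a log2 fold of 0.01 (SE 0.44, edgeR adjusted p = 0.995). Without cluster 25, an alternative added after seeing the data, it stood at 49.9, 51.5, 61.8 and 52.7 CPM in TO 2d 4h, TO 4d 4h, TOE 2d 4h and TOE 4d 4h, against 29.6, 22.1, 26.97 and 31.2 CPM in TO 2d 0h, TO 4d 24h, TOE 2d 24h and TOE 4d 24h. The groups did not overlap, and Ero1a rose by 0.76 on the log2 scale (SE 0.14, edgeR adjusted p = 0.0191), the 1 member of 10 called, where 8.09% of genes were. Ndrg1 in this class was apart with the cluster, at 28.0 to 33.0 CPM for 4 h and 18.3 to 25.6 otherwise, and without it, at 27.7 to 32.9 and 15.5 to 24.8, and it was called in neither fit (log2 fold 0.28 and 0.41, edgeR adjusted p = 0.273 and 0.157).

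In B cell-like cells Ndrg1 was 13.5, 12.2, 9.72 and 14.3 CPM in TO 2d 4h, TO 4d 4h, TOE 2d 4h and TOE 4d 4h, and 4.64, 4.44, 7.02 and 5.57 in TO 2d 0h, TO 4d 24h, TOE 2d 24h and TOE 4d 24h. The groups did not overlap, and the log2 fold was 1.14 (SE 0.23, edgeR adjusted p = 0.0222). Ero1a in the same order was 35.8, 38.2, 36.8 and 35.9 CPM at 4 h and 23.8, 19.4, 23.0 and 26.6 at 0 or 24 h. These groups were apart as well, with a log2 fold of 0.60 (SE 0.13, edgeR adjusted p = 0.0284).

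In monocyte-like cells Ndrg1 was 77.9, 69.0, 64.9 and 75.9 CPM at 4 h and 49.0, 45.5, 47.4 and 57.5 at the other hours, with a log2 fold of 0.56 (SE 0.12, edgeR adjusted p = 0.0281). Ero1a was 72.5, 67.7, 107.6 and 92.8 CPM against 52.6, 60.03, 56.8 and 63.2, with a log2 fold of 0.55 (SE 0.14, edgeR adjusted p = 0.0436). For both genes the 4 h libraries were above the others. The calls changed with the library left out. Without any 1 of TO 2d 0h, TO 2d 4h, TO 4d 4h, TO 4d 24h or TOE 4d 4h, 0 members were called in both classes, and the monocyte-like count was 0 without TOE 2d 4h, 1 without TOE 2d 24h and 4 without TOE 4d 24h. The 1 was Slc2a1 (log2 fold 1.25, edgeR adjusted p = 0.0481), where 4.49% of genes were called, and the 4 were Hk2, Ndrg1, Ero1a and Hif1a, where 24.6% were. Ndrg1 and Ero1a in monocyte-like cells were therefore called in 1 of the 8 fits that left out a library. Over all genes such fits called 98 to 4840 in the B cell-like and 226 to 3610 in the monocyte-like class, against 2255 and 1716.

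The B cell-like clusters were not the same at the different hours. The clusters 5, 13 and 15 held 1066 to 3167 cells in each 4 h library and 13 to 231 in each of the others, and cluster 0 held 37 to 76 cells in each 4 h library. Hour and cluster makeup cannot be told apart for the class as a whole. The median mitochondrial share of UMIs per cell in this class also moved with hour, at 2.08 to 2.92% in the 4 h libraries and 3.36 to 4.80% in the others, while in monocyte-like cells it was 2.26 to 3.44% and 2.82 to 4.35%, which overlapped. The summed level of 12 mesenchymal markers, all detected in B cell-like cells, was 85.3 to 241.5 CPM there at 4 h and 440.2 to 1209 CPM otherwise. In monocyte-like cells, with 11 or 12 detected, it was 81.0 to 212.9 and 327.5 to 818.8 CPM, and in neutrophil-like cells, with 10 to 12 detected, 119.6 to 291.4 and 395.7 to 1003 CPM, so that the hours were apart in these markers in all 3 classes. Their part in the calls was not tested. In the 3 clusters with at least 100 cells in every library, Ero1a was 28.8 to 40.5 CPM at 4 h and 21.4 to 25.9 at the other hours in cluster 4, 24.3 to 27.7 and 13.5 to 21.5 in cluster 14, and 36.2 to 47.8 and 24.5 to 37.3 in cluster 23. The ranges were apart in clusters 4 and 14. Ndrg1 was 7.91 to 13.3 CPM at 4 h and 2.26 to 5.05 otherwise in cluster 14, while its ranges overlapped in cluster 4, with 9.20 to 12.9 and 7.38 to 9.86, and in cluster 23, with 4.64 to 8.81 and 3.23 to 7.47. In monocyte-like cluster 18, Ndrg1 was 82.8 to 90.6 CPM against 53.2 to 67.5 and Ero1a 80.7 to 112.0 against 57.7 to 78.7, both apart. In cluster 17, with the 17 cells of TOE 4d 24h left out, Ndrg1 was 49.5 to 75.0 against 42.7 to 46.6, also apart, and Ero1a 58.6 to 104.9 against 51.7 to 59.5, which overlapped.

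**Figure D5:**
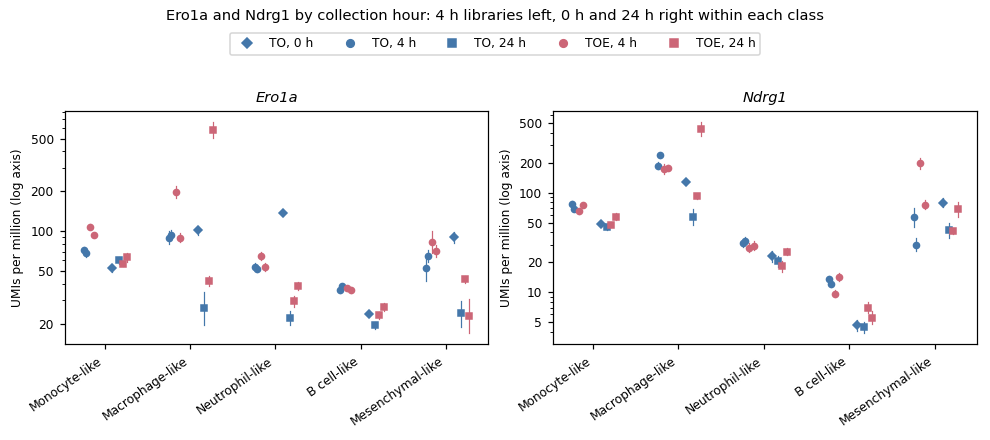
Ero1a and Ndrg1 (CPM, log axis) in 5 cell classes, with the 4 h libraries on the left and the 0 h and 24 h libraries on the right of each class, 1 point per library and 95% counting intervals. In monocyte-like and B cell-like cells every 4 h point lies above every other point, as does Ndrg1 in neutrophil-like cells, where Ero1a in TO 2d 0h (137.4 CPM, cluster 25 included) is the highest point, and in macrophage-like cells TOE 4d 24h is the highest point for both genes.

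Day 4 against day 2, tested over the same 8 libraries, called 0 members in each of the 5 classes, and 0 members had an unadjusted edgeR p under 0.05. Over all genes it called 0.00699% in the monocyte-like class and 0% in the other 4. Of all genes, 1.62% stood at such an unadjusted p in the B cell-like and 5.685% in the neutrophil-like class. The shares were 2.88% in the monocyte-like, 2.58% in the macrophage-like and 1.996% in the mesenchymal-like class, so that a count of 0 among the members is near them. Ndrg1 in mesenchymal-like cells, for example, had a log2 fold of -0.62 with an SE of 0.49, and Bnip3 in neutrophil-like cells -1.24 with an SE of 1.02, so that sizeable differences could have been missed.

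Other genes of these pathways were read from lists of 20 glycolysis and glucose or lactate transport genes, 19 further targets of hypoxia-inducible factor, 7 genes of oxygen sensing and, as a measure of proliferation, 8 cycling genes. For the arm, 0 genes of every list were called in each class. For collection hour, with edgeR adjusted p from 0.00174 to 0.0497 for the genes called, 3 glycolysis genes rose and 1 fell in the monocyte-like class (of 19 tested) and in the neutrophil-like class (of 18), 2 rose and 1 fell in the B cell-like class (of 20), and 1 rose and 1 fell in the macrophage-like class (of 19). Over all genes the same fits called 12.0%, 8.44%, 12.9% and 7.96% in these classes, and in the mesenchymal-like class, with 0.114% of genes called, 0 of 18 glycolysis genes were. In monocyte-like cells Pfkfb4, which sets the level of a glycolytic activator, rose by 1.07 on the log2 scale, Hk3, another hexokinase, by 0.96 and Pkm, the pyruvate kinase, by 0.89. In neutrophil-like cells the lactate transporter gene Slc16a1 rose by 1.03, Pgam1 by 0.67 and Pkm by 0.59. In B cell-like cells Slc16a1 rose by 0.64 and Pfkfb3 by 0.60, and in macrophage-like cells Pfkfb4 rose by 0.90. The median log2 fold of the glycolysis list was 0.38, 0.13, 0.25 and -0.10 in these classes, beside 0.00, -0.01, 0.00 and 0.00 over all genes.

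The gene that fell in all 4 classes was Aldoa, an aldolase, with log2 folds of -2.24 (monocyte-like), -3.35 (neutrophil-like), -2.55 (B cell-like) and -3.01 (macrophage-like). Its monocyte-like level was 1.75 to 2.06 CPM at 4 h and 7.02 to 10.2 at the other hours. For an abundant enzyme these values are low, and the gene list holds 9 entries named as Aldoa pseudogenes, each with 0 UMIs here, so that its counts are uncertain. Similar entries exist for Ldha (30), Pgk1 (11) and Bnip3 (8), also with 0 UMIs, and reads shared with such copies could be lost from these genes in every library.

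Of the further targets, 1 of 19 rose with hour in monocyte-like cells (P4ha1, a collagen prolyl hydroxylase, by 0.85) and 1 of 19 in B cell-like cells (Cited2, by 0.70), and 1 of 18 fell in macrophage-like cells (Higd1a, fell by 0.60). The counts were 0 of 16 in neutrophil-like and 0 of 19 in mesenchymal-like cells. Among oxygen sensing genes, Egln2, another prolyl hydroxylase, fell by 0.81 in B cell-like cells, 1 of 6 tested, and 0 were called in the other classes. Of the 8 cycling genes, Pcna rose in B cell-like and monocyte-like cells (0.72 and 0.76), Cdk1 and Mki67 rose in neutrophil-like cells (0.67 and 0.65), and Birc5 fell in macrophage-like cells (fell by 0.66). Each of these counts stands beside the share of all genes called in its class, 12.9% in the B cell-like, 12.0% in the monocyte-like, 8.44% in the neutrophil-like and 7.96% in the macrophage-like class. Cycling genes also differed within the pairs. In B cell-like cells their intervals lay above 1 for 8 of 8 at 2d 4h (median ratio 1.55) and below 1 for 6 of 8 at 4d 4h (median 0.757), the pairs in which Ldha was 1.80 and 1.25. In neutrophil-like cells the counts were 8 of 8 above 1 at 2d 4h (median 1.48) and 2 above and 2 below at 4d 4h (median 1.04), beside Ldha ratios of 1.57 and 1.505. In monocyte-like cells, where Ldha was 2.39 and 2.12, 6 cycling genes had intervals above and 1 below 1 on day 2 (median 1.20) and 4 above and 4 below on day 4 (median 0.969). In macrophage-like cells, where Ldha was 1.69 and 1.47, the intervals were 3 above and 1 below (median 1.10) and 0 above and 6 below (median 0.652). Mesenchymal-like cells had 0 above and 1 below (7 genes with enough UMIs, median 0.879) and 0 above and 6 below (median 0.705), beside Ldha ratios of 1.08 and 1.36. The part of cycling in the Ldha ratios was not tested.

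The 10 genes did not share 1 pattern over the 81 sums of a class in a library with at least 50 cells. As a description across sums that share libraries and depth, Pearson's r of log2(CPM + 1) was highest for Ldha with Pgk1, 0.87, followed by 0.68 for Slc2a1 with Hk2 and for Bnip3 with Ndrg1. It was lowest for Egln3, with -0.26 against Pdk1 and -0.22 against Bnip3. Among 6997 genes with a mean of at least 20 CPM, the closest to Ldha were the glycolytic genes Eno1 (0.906), Pgk1 (0.869) and Gapdh (0.861), and the closest to Pgk1 were Eno1 (0.911), Ldha (0.869) and Gapdh (0.857). Slc2a1 was closest to Syne3 (0.875), Sgpl1 and Icam1 (both 0.844), and Hk2 to Tmem65 (0.855), Zfp36 (0.830) and Map7d1 (0.829). Bnip3 was closest to the matrix protease gene Mmp14 (0.840), Htra1 (0.824) and Spp1 (0.808), and Ndrg1 to LOC120100852 (0.868), Abca1 (0.853) and Scpep1 (0.851). For Egln3 they were Niban1 (0.804), Itpr2 (0.794) and Rhoh (0.778), and for Hif1a Map4k4 (0.871), Cpeb2 and Tnfaip3 (both 0.822). Pdk1 had Bsg (0.765), Vapb (0.747) and Mif (0.739), and Ero1a had LOC120099382 (0.765), LOC100361457 (0.762) and Esrra (0.747), the lowest leading values of the 10.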

How the data were processed

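Single-cell suspensions of osteotomy tissue were sequenced by the authors with the 10x Genomics Chromium 3′ protocol. Per the labels, the processing notes name Cell Ranger 9.0.0, Seurat and R 4.0.3, and the builds GRCh38 and mRatBN7.2 with no role stated. The deposited matrices hold UMI counts per gene and cell barcode, not normalized. Barcodes with fewer than 200 genes or over 20% mitochondrial UMIs were removed, as were cells with a Scrublet doublet score above 0.25 (2.27% to 4.23% a library). Cells were clustered with scanpy 1.11.5 (2000 variable genes, 30 components, 15 neighbours, Leiden resolution 1), and clusters were named from fixed markers. UMIs were summed per class and library, and classes under 20 cells in a library were left out. CPM intervals are exact Poisson, and ratio intervals exact conditional (95%, scipy 1.17.1), for counting error only. Sums were tested with edgeR 4.0.16 (quasi-likelihood, TMM, filterByExpr, Benjamini-Hochberg over all genes), with DESeq2 1.42.0 as an alternative, in R 4.3.3. P-values measure the spread between libraries of 1 sample each. Depth was 95954800 to 144146202 UMIs a library, and the intervals give its precision. The test scripts were tested on simulated data. The members, lists and tests were chosen with earlier results of these data known. All 10 members are named, with listed pathway genes called in a fit (at most 5 per class and contrast) and the 3 genes most correlated with each member. The unnamed clusters and TO 2d 24h were not used here.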

Additional observations from a re-analysis of the deposited data

Results flagged for a closer look

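In 6 cases flagged here, a TOE over TO ratio lay on 1 side of 1 in both 4 h pairs and on the other side in the 4d 24h pair. Not every such case was flagged. Ldha in dendritic cell-like cells, for example, was 1.90 and 1.29 in the 4 h pairs and 0.601 at 4d 24h. Hk2 in mesenchymal-like cells was 1.11, 1.13 and 0.446 in the same order. None of these differences was tested, since each ratio compares 2 libraries. Ldha in B cell-like cells was 0.806 at 4d 24h, against 1.80 (2d) and 1.25 (4d) in the 4 h pairs, and Pgk1 in the same class was 0.788 against 1.498 and 1.04. Pgk1 in neutrophil-like cells was 0.897 at 4d 24h, against 1.203 and 1.17. Hk2 was 2.31 at 4d 24h in monocyte-like cells, against 0.888 and 0.733, and 3.55 in macrophage-like cells, against 0.744 and 0.534, the latter with 26 cells on the TOE side. Egln3 in monocyte-like cells was 0.302 at 4d 24h, from 53 and 10 UMIs, against 2.22 and 2.17. All 6 rest on TOE 4d 24h, whose cluster makeup differed from the other libraries collected at 24 h.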

How the results depend on the processing

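With 1 library a condition, the intervals cover counting error only, and leaving out a library removes a whole condition. When each library was left out in turn, members called for collection hour ranged from 0 to 3 in the B cell-like class (2 with all libraries). The 3 were Slc2a1, Hk2 and Ndrg1 without TOE 2d 24h, where 1679 of 17964 genes were called. The range was 0 to 4 in the monocyte-like class (2) and 0 to 1 in the macrophage-like class (0). That 1 was Hk2 without TOE 4d 24h, where 17.6% of genes were called. Members called for the arm ranged from 0 to 2 in the monocyte-like class (0). For hour, 0 members were called in the neutrophil-like class and 1 (Ero1a) without its cluster led by Cxcl3, an alternative added after seeing the data. In the monocyte-like class DESeq2 gave 4 for hour and 1 for arm. No filter on low counts and Leiden resolution 2 gave 1 each for hour, where 1357 of 25442 and 1606 of 14280 genes were called. Members with a ratio above 1 changed from 2 to 5 (Leiden resolution 2) and 4 (TMM totals) in macrophage-like cells at 4d 4h, from 10 to 6 in mesenchymal-like cells at 2d 4h (mean over cells) and from 7 to 4 in monocyte-like cells at 4d 24h (TMM totals). With clusters weighted alike, chosen after seeing the data, they changed from 5 to 8 at 2d 4h and from 7 to 3 at 4d 24h in neutrophil-like cells. Single ratios that crossed 1 were Pgk1 at 4d 24h in monocyte-like cells (0.977 at Leiden resolution 0.5, 0.997 as a mean over cells, 0.858 with TMM totals), Hif1a at 2d 4h in macrophage-like cells (2.20 at Leiden resolution 2, 1.07 as a mean over cells), and Bnip3 at 4d 4h in macrophage-like cells (0.969 at Leiden resolution 2). As means over cells, Slc2a1 at 2d 4h in macrophage-like cells was 0.802, Hk2 at 2d 4h in monocyte-like cells 1.00 and Pgk1 at 4d 24h in neutrophil-like cells 1.02. With clusters weighted alike, Ndrg1 at 4d 24h in monocyte-like cells was 0.938, and in neutrophil-like cells Hif1a at 2d 4h was 1.04 and Pdk1 at 4d 24h 0.785. Highest class medians changed between classes. At Leiden resolution 2 the number in the dendritic cell-like class was 0, as no cluster was given that name there. The cluster with Siglech and Flt3 among its leading genes (2148 cells) was unnamed. By library left out, the number in the dendritic cell-like class was 0 to 1. In the endothelial-like class it was 0 with a stricter doublet limit or as a mean over cells and 0 to 2 by library left out. It was 2 in the granulocyte-monocyte progenitor-like class as a mean over cells, and 1 to 2 in the mast cell/basophil-like class by library left out. The cause of the other changes was not tested. With the stricter cell filter, median-of-ratios size factors or totals without abundant genes, none of the counts or ratios recomputed changed in these ways. No paired analysis was possible from replicate numbers because each condition had 1 library, and the fit of the arm paired libraries by day and hour instead. A test of the arm without the pair factor, and in all 8 libraries, also called 0 members in each class. Over all genes these fits called 0 in each class too.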
